A study of Homo sapiens with 24 samples.

Results

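The dNTP supply enzymes are the 9 genes TYMS, RRM1, RRM2, RRM2B, TK1, DCK, DTYMK, DUT and SAMHD1, chosen by symbol in the deposited table of 14585 genes, and all 9 were found there. RNA was sequenced from A549 cells, a human lung adenocarcinoma line with wild-type p53 according to the study, and from Huh7 cells, a human hepatocellular carcinoma line with mutant p53 according to the study. Each line was either a control or received an extract of the herb Pulsatilla chinensis, Bupleurum chinense or Polyporus umbellatus, with 3 replicates in each of the 8 groups and 24 libraries in all. Both lines carry the genotype label WT, the tissue labels are lung and liver, and the dose and time of the sequenced cells were not given in the sources used here. The study dissolved the extracts in DMSO, and these sources do not say whether the control cells received DMSO. In the comparisons with control, an effect of a herb can therefore not be told apart from one of the solvent. Each line is 1 cell line, so a difference between A549 and Huh7 cells cannot be told apart from their tissue, their p53 status or any other property of those cells. The labels do not say that replicates came from separate cultures, so p-values measure only the spread between these samples.

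DNA synthesis needs the 4 deoxynucleoside triphosphates, the dNTPs, in balanced amounts. Ribonucleotide reductase makes them from ribonucleotides and is built from the large subunit RRM1 and a small subunit, which is RRM2 in S phase and RRM2B, a p53 target, outside S phase and after DNA damage. The nucleoside kinases TK1 and DCK salvage deoxynucleosides, TYMS methylates dUMP to dTMP, DTYMK passes dTMP on towards dTTP, DUT removes dUTP before it enters DNA, and SAMHD1 breaks dNTPs down.

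Library totals ran from 6803704 to 24345541 counts (median 10515192). In Huh7 cells the totals differed by group: 16455709 to 24345541 in control cells and 13259204 to 24340250 with P. chinensis. They were 9526159 to 11546100 with B. chinense and 7182444 to 10328734 with P. umbellatus, all below the controls. Whether this difference in depth bears on the Huh7 comparisons was not tested. Levels are given as CPM, counts scaled to 1e+06 per library after normalization by the trimmed mean of M values (TMM), and changes as log2 fold changes with their standard error (SE). A gene was taken as changed at a Benjamini-Hochberg adjusted p below 0.05 in edgeR's two-sided quasi-likelihood test over all genes of the fit. The line labels were checked on 8 marker genes a line. The A549 markers summed to between 15912 and 21219.7 CPM in A549 cells and to at most 1967 CPM in Huh7 cells. The Huh7 markers, among them ALB, AFP and APOB, summed to at least 13036 CPM in Huh7 cells and at most 136 CPM in A549 cells. In the A549 libraries HNF4A alone reached 126 CPM and ALB did not exceed 0.728 CPM. Leukocyte markers (2 of 4 in the table, CD3E and CD79A absent) reached at most 4.56 CPM and fibroblast markers (3 of 3) at most 14.5 CPM in any library. Of the endothelial markers 1 of 3 was in the table, at 1.04 to 3.16 CPM in A549 cells and 32.9 to 57.7 CPM in Huh7 cells.

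The promoters of the enzymes are described first, and whether any match in them bears on the changes below was not tested. RefSeq (GRCh38.p14) promoter entries matched 8 of the 9 genes, and RRM2B did not match. The 250 bases before each start were searched on both strands for the E2F site, spelled TTTCCCGC, TTTGGCGC, TTTCGCGC or TTTGCCGC, the CCAAT box, spelled CCAAT, the CHR element of cell cycle genes, spelled TTTGAA, and the GC box, spelled GGGCGG. E2F factors and the CCAAT-binding factor NF-Y are known regulators of S phase genes. An E2F site was matched in 2 of the 8 genes, TYMS and DUT, against 2.79% of 35116 RefSeq promoters. A CCAAT box was matched in 5 of 8, against 32.0% of promoters. The CHR element was matched in 2 of 8, against 13.3%, and the GC box in 6 of 8, against 42.6%. A gene with several starts was counted if any of them matched, while the share of promoters counts each start once, and a match is only a match of letters. TYMS lies on chromosome 18 (GRCh38, 657653 to 673578, plus strand), and the 150 bases before its start hold no annotated exon. They are printed 5′ to 3′ with the E2F match in capitals, on the strand of the gene, where it reads as the reverse complement of TTTCCCGC.
TYMS, chr18:657503-657652: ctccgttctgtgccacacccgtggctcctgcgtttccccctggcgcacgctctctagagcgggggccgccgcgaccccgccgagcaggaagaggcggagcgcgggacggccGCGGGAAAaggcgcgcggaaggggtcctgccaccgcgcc

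DUT had 2 E2F matches in a stretch of 29 bases. They begin 42 and 27 bases before 1 of its RefSeq starts and are printed on the plus strand. Its other starts had no E2F match, and counts per gene do not say which start was used. RRM2 had 3 CCAAT boxes in a row before 1 of its starts, each followed by gggaaggg, on the plus strand. TK1 had 2 CCAAT boxes before 1 of its starts, which read as ATTGG on the minus strand, the strand of the gene. SAMHD1, which was not called with any herb in A549 cells, had 2 CCAAT boxes in a stretch of 29 bases, on the minus strand, the strand of the gene. These stretches are shown with the matches in capitals, because they hold repeated E2F or CCAAT matches within a short distance, in enzymes that fell as well as in enzymes that were not called in A549 cells. Unlike the bases printed for TYMS, those before these starts overlap annotated exons of the same gene. Of the 150 bases before the start, exons cover all 150 for RRM2, TK1 and SAMHD1 and 94 for DUT.
DUT, chr15:48332152-48332180: ctgGCGGGAAAtttcggtTTTGGCGCgct
RRM2 box 1, chr2:10122613-10122641: cagCCAATgggaagggtcggaggcatggc
RRM2 box 2, chr2:10122643-10122671: cagCCAATgggaagggccggggcaccaaa
RRM2 box 3, chr2:10122670-10122698: aagCCAATgggaagggccgggagcgcgcg
TK1 box 1, chr17:78187104-78187132: ctgATTGGccccatggcggcggggccggc
TK1 box 2, chr17:78187073-78187101: gtgATTGGccagcacgccgtggtttaaag
SAMHD1, chr20:36951732-36951760: aggCCAATaggctgCCAATactccttgga

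In control cells the enzymes differed widely in level. Per kilobase of the canonical transcript, TK1 had the highest mRNA level in A549 control cells, at 115 ± 4.95 CPM per kb (SD, n = 3), followed by TYMS at 82.5 ± 2.96. DTYMK at 69.0 ± 6.03 and RRM1 at 66.0 ± 5.19 CPM per kb did not differ beyond their spread. RRM2 stood at 38.7 ± 12.9 and DUT at 28.3 ± 2.78 CPM per kb, a gap within the spread of RRM2. RRM2B at 15.6 ± 1.45 and DCK at 13.4 ± 2.47 CPM per kb were also within their spread of each other, and SAMHD1 was lowest at 6.06 ± 0.606. In Huh7 control cells TYMS was highest at 139 ± 9.56 CPM per kb and TK1 followed at 93.5 ± 4.72. RRM2B at 6.64 ± 0.877 and SAMHD1 at 4.57 ± 0.459 CPM per kb closed the order there. Thus the small subunit RRM2 was above RRM2B in the control cells of both lines.

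The control cells of the 2 lines were compared directly in a fit of all 24 libraries. Of the 9 enzymes 5 differed between A549 and Huh7 control cells, where 68.7% of all 12924 genes tested differed. RRM2B was higher in A549 cells by 1.23 on the log2 scale (SE 0.10, adjusted p = 5.84e-10) and RRM1 by 0.73 (SE 0.10, adjusted p = 9.78e-07). TYMS was the 1 enzyme lower in A549 cells, with a log2 difference of -0.75 (SE 0.08, adjusted p = 1.60e-08). TK1 was higher by 0.30 (adjusted p = 0.0239), a call that was lost without A549 control replicate 3 (adjusted p = 0.0772) and without Huh7 control replicate 1 (0.0513) or 3 (0.0563). SAMHD1 was higher by 0.40 (adjusted p = 0.0313), a call lost without A549 control replicate 1 (adjusted p = 0.111) or 3 (0.0656) and without Huh7 control replicate 1 (0.0831) or 3 (0.0734). RRM2, at -0.52 (adjusted p = 0.284), passed when only the control libraries were fitted (-0.51, adjusted p = 0.0341). DCK, at 0.14 (adjusted p = 0.341), passed without A549 control replicate 2 (0.28, adjusted p = 0.0456). RRM2 did not pass, at -0.52 (95% interval -1.40 to 0.36, adjusted p = 0.284).

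**Figure D1:**
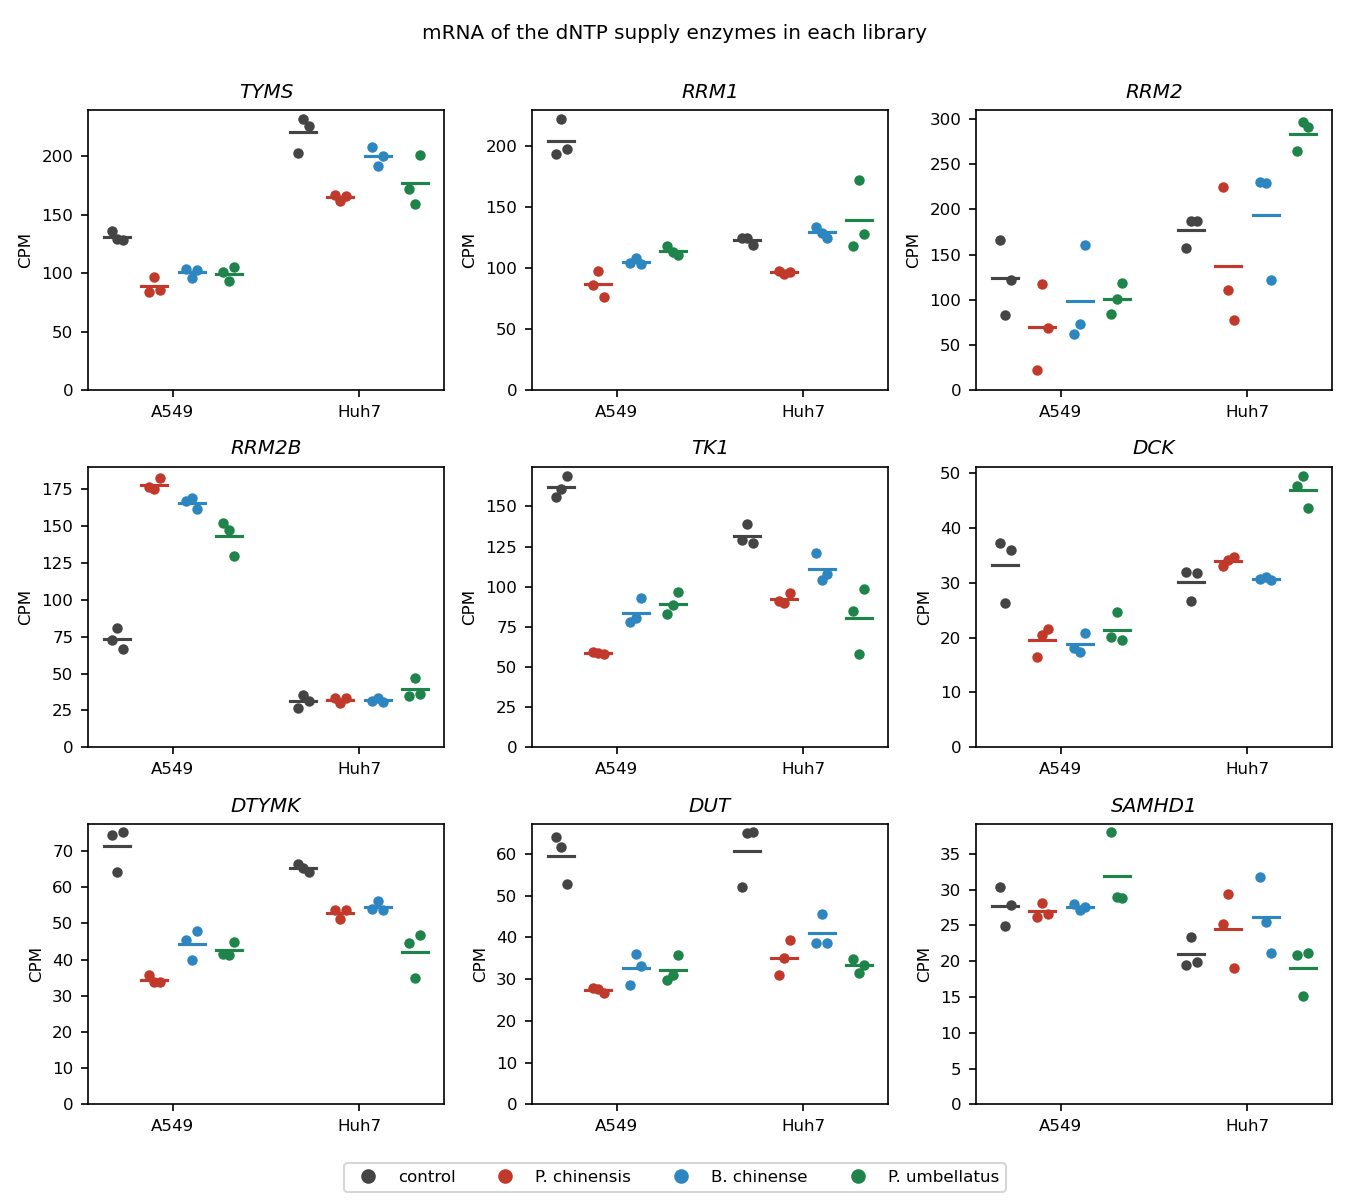
CPM of each enzyme (vertical axis, from 0) in the 24 libraries, by cell line and group, where each point is 1 library and each bar the mean of 3. RRM2B stands at 66.7 to 80.5 CPM in A549 control cells and at 129.6 to 182 CPM with the herbs, while TK1 falls from 156 to 169 CPM to 58.1 to 96.7 CPM, and the points of RRM2 are widely scattered.

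In A549 cells given the herbs 6 of the 9 enzymes were lower and 1 was higher than in control cells, and the same 7 genes were called with each herb. The genes that fell were TYMS, RRM1, TK1, DCK, DTYMK and DUT, and the gene that rose was RRM2B. Among all 13633 genes tested, the share called lower was 17.1%, 15.0% and 14.8% for P. chinensis, B. chinense and P. umbellatus respectively, and the share called higher was 15.8%, 13.1% and 13.4% in the same order. The 3 comparisons share the same control libraries, so they are not independent of each other. In RNA from whole cultures, fewer cells that express a gene and less RNA of it per cell cannot be told apart.

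Of the subunits of ribonucleotide reductase, RRM1, the large subunit present in both forms of the enzyme, is on chromosome 11 (4094707 to 4138932, plus strand). RRM1 stood at 193, 222 and 197 CPM in the A549 control libraries and at 86.3, 97.4 and 76.6 CPM with P. chinensis. With B. chinense it was at 104, 108 and 103 CPM, and with P. umbellatus at 118, 113 and 111 CPM. Every treated library was below every control library. RRM1 fell by 1.23 on the log2 scale with P. chinensis (SE 0.08, adjusted p = 2.60e-08), by 0.95 with B. chinense (adjusted p = 6.21e-07) and by 0.84 with P. umbellatus (adjusted p = 1.71e-06). In linear terms it was 2.35-fold lower with P. chinensis.

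RRM2B, the p53-inducible small subunit on chromosome 8 (102204502 to 102238961, minus strand), moved the other way. Its levels were 72.7, 80.5 and 66.7 CPM in the A549 control libraries and 176, 175 and 182 CPM with P. chinensis. B. chinense gave 167, 169 and 161 CPM, and P. umbellatus 152, 147 and 129.6 CPM, so that no treated library overlapped the controls. The log2 rise was 1.28 with P. chinensis (SE 0.07, adjusted p = 7.80e-09), 1.18 with B. chinense (SE 0.07, adjusted p = 4.81e-08) and 0.97 with P. umbellatus (SE 0.07, adjusted p = 2.26e-07). With P. chinensis this was a 2.42-fold rise.

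RRM2, the S phase small subunit on chromosome 2 (10120698 to 10211725, plus strand), varied so much between replicates that none of the A549 comparisons passed the test. The A549 control libraries held 166, 83.3 and 122 CPM, and the P. chinensis libraries 22.8, 118 and 68.7 CPM. With B. chinense RRM2 was at 61.8, 73.0 and 161 CPM, and with P. umbellatus at 84.4, 101 and 119 CPM. The treated and control libraries overlapped with each herb. The log2 difference was -0.80 with P. chinensis (SE 0.44, 95% interval -1.74 to 0.13, adjusted p = 0.183), -0.34 with B. chinense (adjusted p = 0.616) and -0.29 with P. umbellatus (adjusted p = 0.670). The interval with P. chinensis also holds a fall as deep as that of RRM1. Without P. chinensis replicate 2, the library at 118 CPM, RRM2 passed the test with a log2 difference of -1.39 (SE 0.45, adjusted p = 0.0328).

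RRM2 scattered more between replicates than the other enzymes. Its pooled standard deviation within groups was 0.63 on the log2 scale, which placed it 172nd from the highest of 9951 genes that averaged 50 counts or more in both lines, at the 98.3 percentile. The median gene had a standard deviation of 0.15, and the other 8 enzymes lay between 0.10 for TYMS and 0.21 for SAMHD1. Within groups, over the 24 libraries, the deviations of RRM2 had a correlation of 0.49 with those of DCK, 0.35 with TYMS, 0.06 with RRM1 and -0.04 with RRM2B. These correlations are a description, since the libraries share groups. RRM2 had at least 195 counts in each library, and the source of its scatter was not tested.

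The 2 salvage kinases both fell in A549 cells. TK1, the S phase thymidine kinase on chromosome 17 (78174091 to 78187233, minus strand), stood at 156, 161 and 169 CPM in control cells and at 59.6, 58.8 and 58.1 CPM with P. chinensis. Its level was 77.9 to 93.0 CPM with B. chinense and 83.1 to 96.7 CPM with P. umbellatus, all below the controls. With P. chinensis TK1 fell by 1.46 on the log2 scale (SE 0.07, adjusted p = 3.17e-09), the deepest fall among the 9 enzymes in that comparison and a 2.75-fold lower level. The fall was 0.95 with B. chinense (log2 difference -0.95, adjusted p = 2.91e-07) and 0.86 with P. umbellatus (log2 difference -0.86, adjusted p = 6.27e-07). DCK, the deoxycytidine kinase on chromosome 4 (70992538 to 71030914, plus strand), had 37.2, 26.2 and 36.0 CPM in control cells and 16.5, 20.4 and 21.5 CPM with P. chinensis. B. chinense left it at 17.3 to 20.9 CPM and P. umbellatus at 19.6 to 24.6 CPM, below the lowest control. The log2 difference of DCK was -0.76 with P. chinensis (SE 0.15, adjusted p = 0.00142), -0.82 with B. chinense (adjusted p = 0.00114) and -0.62 with P. umbellatus (adjusted p = 0.00615). DCK overlaps MOB1B on the same strand over 29912 bases. In A549 cells MOB1B did not fall with DCK: its log2 difference was 0.24 with P. chinensis (adjusted p = 0.0115), 0.18 with B. chinense (0.0604) and 0.19 with P. umbellatus (0.0420). In Huh7 cells with P. umbellatus both were called higher, MOB1B at 0.36 (adjusted p = 0.0295) and DCK at 0.64 (9.37e-04). Both were also lower there with P. chinensis than with P. umbellatus, MOB1B at -0.35 (adjusted p = 0.0352).

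The enzymes of thymidylate synthesis fell together as well. TYMS, thymidylate synthase, went from 136, 129 and 128 CPM in control cells to 84.2, 97.2 and 86.0 CPM with P. chinensis, with no overlap. Its log2 difference of -0.55 (SE 0.07, adjusted p = 1.61e-05) was the smallest of the 6 falls with this herb, and it was -0.37 with B. chinense (adjusted p = 7.25e-04) and -0.39 with P. umbellatus (adjusted p = 4.16e-04). ENOSF1, which overlaps TYMS on the opposite strand over 3261 bases, did not pass the test with any herb in A549 cells, at 0.28 with P. chinensis (SE 0.33, adjusted p = 0.565). DTYMK, thymidylate kinase on chromosome 2 (241675747 to 241686944, minus strand), stood at 74.4, 64.2 and 75.4 CPM in control cells and at 35.8, 33.7 and 33.8 CPM with P. chinensis. The log2 difference of DTYMK was -1.05 with P. chinensis (SE 0.09, adjusted p = 4.26e-07), -0.68 with B. chinense (adjusted p = 4.07e-05) and -0.74 with P. umbellatus (adjusted p = 1.60e-05).

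Of the 2 enzymes that remove nucleotides, DUT fell and SAMHD1 did not pass the test. DUT, the dUTPase on chromosome 15 (48331011 to 48343373, plus strand), had 64.1, 61.6 and 52.8 CPM in A549 control cells and 27.9, 27.7 and 26.6 CPM with P. chinensis. With B. chinense it was at 28.6 to 36.1 CPM and with P. umbellatus at 29.9 to 35.7 CPM. Its log2 difference was -1.11 with P. chinensis (SE 0.11, adjusted p = 1.58e-06), -0.86 with B. chinense (adjusted p = 2.82e-05) and -0.88 with P. umbellatus (adjusted p = 1.85e-05). SAMHD1, the dNTP triphosphohydrolase on chromosome 20 (36890229 to 36951893, minus strand), stayed between 24.9 and 38.0 CPM in all A549 libraries, and the groups overlapped. Its log2 difference with P. chinensis was -0.04, with a 95% interval of -0.29 to 0.22 and an adjusted p of 0.854. With B. chinense the interval was -0.26 to 0.25, and with P. umbellatus -0.03 to 0.46.

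**Figure D2:**
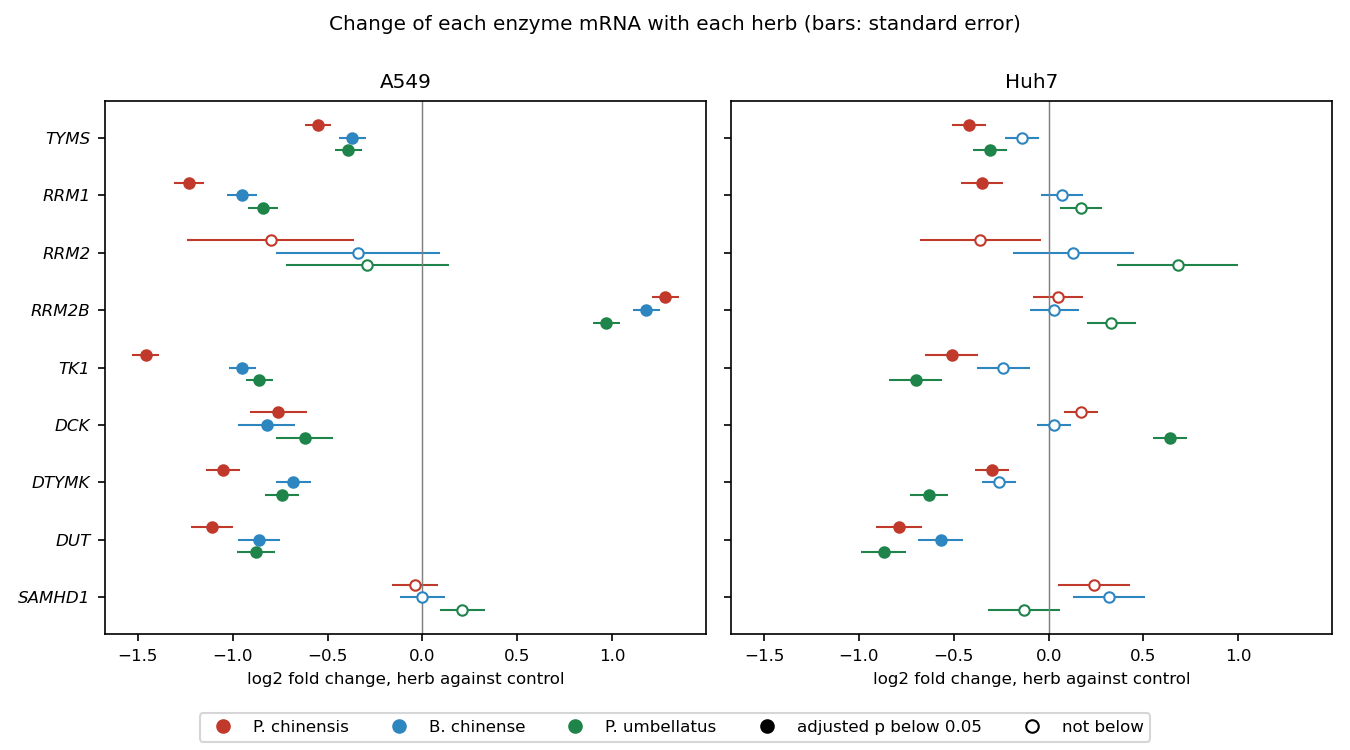
Log2 fold change of each enzyme against control (horizontal axis, bars show the standard error) with the 3 herbs in A549 cells (left) and Huh7 cells (right), where filled points have an adjusted p below 0.05. In A549 cells 6 enzymes lie left of 0 with filled points and RRM2B lies right of 0 at 0.97 to 1.28, while in Huh7 cells RRM2B lies at 0.03 to 0.33 with open points and DUT is the 1 gene filled with each herb.

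The herbs were also compared with each other in A549 cells. P. chinensis against B. chinense differed in 1 of the 9 enzymes, where 1.45% of all genes differed: TK1 was lower with P. chinensis, by -0.51 on the log2 scale (SE 0.08, adjusted p = 0.00665). P. chinensis against P. umbellatus differed in 3 enzymes, where 3.01% of all genes differed. TK1 (-0.60, adjusted p = 0.00114) and RRM1 (-0.40, adjusted p = 0.0155) were lower and RRM2B was higher (0.31, adjusted p = 0.0248) with P. chinensis. The TK1 calls of both comparisons held without any 1 library. That of RRM1 was lost without P. chinensis replicate 3 (adjusted p = 0.0718) or P. umbellatus replicate 1 (0.0587). That of RRM2B was lost without P. chinensis replicate 1 (0.0569) or 3 (0.104) and without P. umbellatus replicate 2 (0.0554) or 3 (0.102). Against B. chinense, RRM1 passed without P. chinensis replicate 2 (-0.37, adjusted p = 0.0369) and DTYMK without B. chinense replicate 2 (-0.44, adjusted p = 0.0475). B. chinense against P. umbellatus differed in 0 enzymes at an adjusted p below 0.05 in edgeR and in 0 with DESeq2, where 0.0513% of all genes differed in edgeR. At an unadjusted p below 0.05 edgeR's test gave 1 enzyme, RRM2B, with a log2 difference of 0.21 and an adjusted p of 0.453. The 95% intervals of that comparison ran from -0.12 to 0.16 for TYMS and from -0.25 to 0.06 for TK1.

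In Huh7 cells 5, 1 and 5 of the 9 enzymes were called with the 3 herbs in the same order, against 7 with each in A549 cells, and RRM2B was not among them. The Huh7 fit shares 1 estimate of the spread over all herbs, and the P. umbellatus libraries varied most between replicates. Fitted with control alone, P. chinensis had 2884 genes called higher and 2976 lower, in place of 1450 and 1451. B. chinense had 399 and 723 in place of 72 and 105, and P. umbellatus 512 and 715 in place of 2674 and 2464. The Huh7 calls and shares therefore depend on that spread. With P. chinensis 5 of the 9 enzymes fell and 0 rose, where 10.5% of the 13875 genes tested were called lower. They were TYMS, RRM1, TK1, DTYMK and DUT. DUT went from 52.1, 65.0 and 65.2 CPM in control cells to 31.0, 35.0 and 39.3 CPM, a log2 difference of -0.79 (SE 0.12, adjusted p = 5.04e-04). TYMS went from 203, 232 and 226 CPM to 167, 162 and 166 CPM, a log2 difference of -0.42 (SE 0.09, adjusted p = 0.00451). These 2 calls held when any 1 library was left out, and those of the other 3 enzymes did not. TK1 (-0.51, adjusted p = 0.0216), RRM1 (-0.35, adjusted p = 0.0414) and DTYMK (-0.30, adjusted p = 0.0360) each lost the call when any 1 of the 6 libraries compared was left out. Without P. chinensis replicate 2, for example, the adjusted p was 0.0727 for TK1, 0.0932 for RRM1 and 0.109 for DTYMK, and the number of enzymes called was 2. RRM1 was at 125, 125 and 119 CPM in control cells and at 98.0, 95.3 and 96.8 CPM with P. chinensis. DCK was at 33.0 to 34.7 CPM with P. chinensis and 26.6 to 31.9 CPM in control cells and did not pass (0.17, adjusted p = 0.212).

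The small subunits did not pass the test in Huh7 cells with P. chinensis. RRM2B was at 27.0, 35.3 and 31.2 CPM in control cells and at 33.2, 30.0 and 33.5 CPM with P. chinensis, a log2 difference of 0.05 with a 95% interval of -0.23 to 0.33 (adjusted p = 0.836). RRM2 was at 157, 187 and 187 CPM in control cells and at 225, 111 and 77.6 CPM with P. chinensis, so that 1 treated library was above the controls and the others below. Its log2 difference was -0.36 (95% interval -1.05 to 0.33, adjusted p = 0.482), and it passed at -0.93 (SE 0.24, adjusted p = 0.0263) without P. chinensis replicate 1, the library at 225 CPM.

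With B. chinense 1 of the 9 enzymes fell in Huh7 cells, where 0.757% of all genes were called lower. It was DUT, at 38.6, 45.6 and 38.7 CPM, with a log2 difference of -0.57 (SE 0.12, adjusted p = 0.0378). This call was lost without any 1 of the B. chinense replicates (adjusted p = 0.146, 0.0604 and 0.164), without control replicate 2 (0.165) or 3 (0.180), and without P. chinensis replicate 2 (0.0721). DTYMK was at 53.9, 56.2 and 53.8 CPM, below the control libraries at 66.5, 65.2 and 64.3 CPM, and TK1 at 121, 104 and 108 CPM against 129, 139 and 127 CPM, but neither passed (adjusted p = 0.265 and 0.546). DTYMK passed without P. umbellatus replicate 2, which is not part of this comparison but enters the estimate of the spread (-0.26, adjusted p = 0.0114). RRM2B had a log2 difference of 0.03, with a 95% interval of -0.25 to 0.31.

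With P. umbellatus 4 of the 9 enzymes fell and 1 rose in Huh7 cells, where 17.8% of all genes were called lower and 19.3% higher. Those called lower were TYMS (-0.31, adjusted p = 0.0155), TK1 (-0.70, adjusted p = 0.00382), DTYMK (-0.63, adjusted p = 0.00113) and DUT (-0.87, adjusted p = 7.73e-04). DCK was called higher at 47.6, 49.4 and 43.6 CPM against 31.9, 26.6 and 31.7 CPM in control cells, a log2 difference of 0.64 (SE 0.09, adjusted p = 9.37e-04). RRM2, at 264, 296 and 291 CPM, was above each control library but did not pass (0.68, SE 0.32, adjusted p = 0.111), and RRM2B at 34.6, 47.2 and 35.9 CPM did not pass either (0.33, adjusted p = 0.0673). The TYMS call was lost without control replicate 2 (adjusted p = 0.0510) or 3 (0.0543), and RRM2B passed without P. umbellatus replicate 1 (0.41, adjusted p = 0.0411) or 3 (0.39, adjusted p = 0.0452). RRM2 passed without P. chinensis replicate 1 (0.65, adjusted p = 0.0367). In a fit of only the P. umbellatus and control libraries RRM2 passed as well (0.65, adjusted p = 0.0270), while TYMS (-0.35, adjusted p = 0.0869) and TK1 (-0.74, adjusted p = 0.0513) lost their calls.

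The libraries of Huh7 cells with P. umbellatus stood apart from the rest. Replicate 2 differed from the other replicates of its group by 13.3 and 17.6 times the sampling noise (median over genes of the squared difference over that expected), and replicates 1 and 3 differed by 5.36 times, while pairs in the other 7 groups differed by 2.74 to 4.29 times. In this comparison the change of a gene also moved with the GC content of its transcript: the median log2 fold change was 0.35 over 2463 genes below 40% GC and -0.67 over 2010 genes at 60% GC or more. In the other 5 comparisons with control these medians lay between -0.06 and 0.09. The enzymes span that range, with DCK at 35.4% and RRM2B at 35.1% GC at one end and DTYMK at 57.8% and TK1 at 60.3% at the other.

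When GC content and transcript length were corrected for in every library, the values of the enzymes in Huh7 cells with P. umbellatus moved closer together. The log2 difference of DCK became 0.19 and its call was lost (adjusted p = 0.250). TK1 became -0.19 (adjusted p = 0.0446) and DTYMK -0.21 (adjusted p = 0.0207), both still called. RRM2, not called before, went from 0.68 to 0.36 (adjusted p = 0.456). RRM2B went from 0.33 to -0.17 (adjusted p = 0.250) and RRM1 from 0.17 to -0.14 (adjusted p = 0.140), so the sign of these 2 uncalled values depended on the correction. TYMS (-0.38, adjusted p = 0.00946) and DUT (-1.09, adjusted p = 1.79e-04) were as low or lower after it. Without replicate 2 and without the correction, the 5 calls held, with DCK at 0.59 (adjusted p = 5.18e-04) and TK1 at -0.52 (adjusted p = 6.33e-04). DUT thus fell with each herb in both lines, and with P. umbellatus in Huh7 cells it did so with and without the correction.

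**Figure D3:**
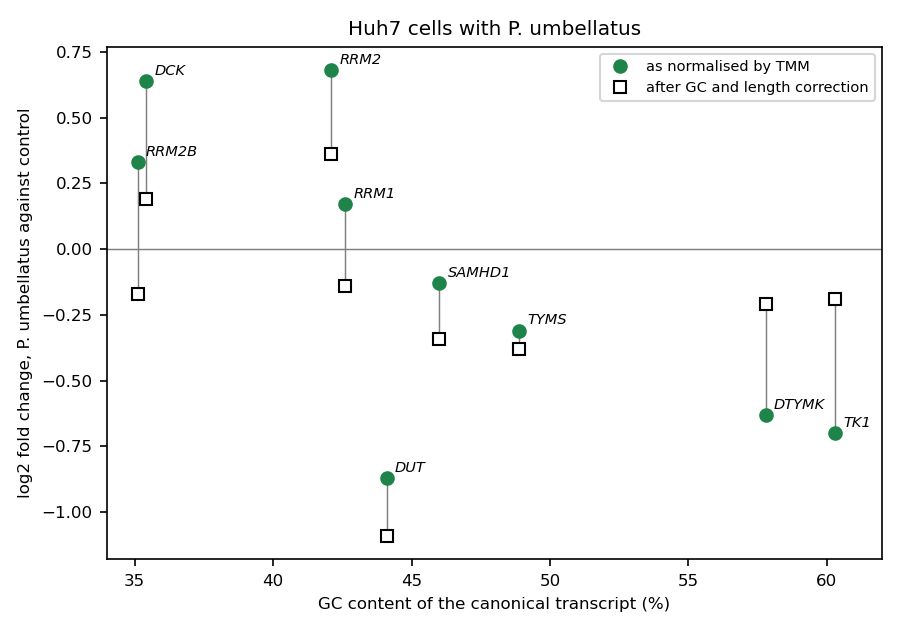
Log2 fold change with P. umbellatus in Huh7 cells (vertical axis) against the GC content of each enzyme's canonical transcript in percent (horizontal axis), before (green circles) and after (open squares) correction for GC content and length. DCK moves from 0.64 to 0.19 and TK1 from -0.70 to -0.19, while DUT moves from -0.87 to -1.09.

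Between the herbs in Huh7 cells, P. chinensis against B. chinense differed in 1 enzyme, RRM1 (-0.42, adjusted p = 0.0381), where 7.81% of all genes differed. The RRM1 call was lost without any 1 of the 6 libraries compared and without control replicate 1 or 3, with adjusted p from 0.0607 to 0.119. RRM2 passed at -1.05 (adjusted p = 0.0369) without P. chinensis replicate 1. Without P. umbellatus replicate 2, TYMS (-0.28, adjusted p = 0.00993) and TK1 (-0.27, adjusted p = 0.0188) passed as well, and TYMS also without P. umbellatus replicate 3 (adjusted p = 0.0172). After the GC and length correction TYMS (-0.34, adjusted p = 0.0169) and TK1 (-0.32, adjusted p = 0.00281) passed too.

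P. chinensis against P. umbellatus differed in 4 of the 9 enzymes in Huh7 cells, where 35.4% of all genes differed. With P. chinensis RRM1 (-0.52, adjusted p = 0.00407), RRM2 (-1.04, SE 0.32, adjusted p = 0.0255) and DCK (-0.46, adjusted p = 0.00289) were lower and DTYMK was higher (0.33, adjusted p = 0.0207). This was the 1 comparison within a line in which RRM2 passed the test, and it no longer did without P. chinensis replicate 2 (-0.89, adjusted p = 0.0970) or 3 (-0.76, adjusted p = 0.0829). The DTYMK call was lost without P. chinensis replicate 1 (adjusted p = 0.0596) or 3 (0.0630), and TK1 passed without P. umbellatus replicate 3 (0.36, adjusted p = 0.0397). After the GC and length correction 2 enzymes passed in place of 4. TK1, at 0.19 and not called before (adjusted p = 0.320), turned to -0.32 (adjusted p = 0.00319), DTYMK turned to -0.13 (adjusted p = 0.119), and RRM2 (-0.76, adjusted p = 0.101) and DCK (-0.06, adjusted p = 0.749) lost their calls. RRM2B, not called, went from -0.28 to 0.22.

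B. chinense against P. umbellatus differed in 3 enzymes in Huh7 cells, where 27.3% of all genes differed. TK1 (0.46, adjusted p = 0.0348) and DTYMK (0.37, adjusted p = 0.0187) were higher and DCK was lower (-0.61, adjusted p = 0.00611) with B. chinense. After the GC and length correction these were 0.00, 0.01 and -0.19 and did not pass, while DUT did (0.51, adjusted p = 0.0438). The TK1 call was also lost without B. chinense replicate 1 (adjusted p = 0.104), 2 (0.0566) or 3 (0.0741), and the DTYMK call without B. chinense replicate 2 (0.0518). TYMS passed without P. umbellatus replicate 3 (0.28, adjusted p = 0.0115).

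Whether the 2 lines responded differently was tested as an interaction in the fit of all 24 libraries, as the A549 response less the Huh7 response. With P. chinensis 5 of the 9 enzymes differed, where 19.6% of all genes did. The response of RRM2B was higher in A549 cells by 1.28 (SE 0.15, adjusted p = 1.51e-06), and those of RRM1 (-0.83, adjusted p = 1.97e-04), TK1 (-0.90, adjusted p = 4.35e-04), DCK (-0.88, adjusted p = 0.00117) and DTYMK (-0.69, adjusted p = 4.11e-04) were lower. With B. chinense 4 enzymes differed, where 11.6% of all genes did. They were RRM2B (1.19, adjusted p = 1.29e-05), RRM1 (-0.98, adjusted p = 6.61e-05), TK1 (-0.67, adjusted p = 0.00949) and DCK (-0.81, adjusted p = 0.00501). With P. umbellatus 3 enzymes differed, where 34.4% of all genes did, namely RRM2B (0.72, adjusted p = 9.01e-04), RRM1 (-0.93, adjusted p = 5.71e-05) and DCK (-1.18, adjusted p = 5.83e-05). After the GC and length correction these were 1.26 (adjusted p = 3.10e-07), -0.60 (3.91e-04) and -0.65 (0.0135). For this herb TK1 and DTYMK passed after the GC and length correction, at -0.56 (adjusted p = 1.61e-04) and -0.37 (adjusted p = 0.0143), and TK1 also passed without Huh7 P. umbellatus replicate 2 (-0.30, adjusted p = 0.0414). With B. chinense DTYMK missed the threshold, at -0.38 (adjusted p = 0.0544), and passed without A549 B. chinense replicate 3, A549 control replicate 2 or any 1 of the Huh7 P. umbellatus replicates, with adjusted p from 0.00630 to 0.0437.

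RRM1, RRM2B and DCK thus differed between the lines with each of the 3 herbs. With P. umbellatus they were 3 of the 9 enzymes, where 34.4% of all genes differed. The count of enzymes called with that herb therefore does not set them apart from other genes. TYMS, DUT, RRM2 and SAMHD1 did not pass the test of the difference with any herb in the fit of all libraries. RRM2 passed with P. umbellatus when only the 4 groups of that difference were fitted (-0.93, SE 0.28, adjusted p = 0.0296, against -0.89, SE 0.60, adjusted p = 0.269, in the fit of all libraries). For TYMS the 95% interval of the difference was -0.31 to 0.14 with P. chinensis, and for DUT it was -0.60 to 0.06. For RRM2 the interval was -1.65 to 0.85, so a difference of the size seen for RRM1 cannot be told from none.

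Because RRM2 and RRM2B each pair with RRM1, their counts were also set against each other within each library, as a description with no test. In A549 control cells RRM2 had 2.28, 1.04 and 1.83 counts for each count of RRM2B. In cells given P. chinensis the ratio was 0.129, 0.675 and 0.377, for B. chinense it was 0.369, 0.432 and 0.997, and P. umbellatus had 0.555, 0.688 and 0.915. Every treated A549 library had more counts of RRM2B than of RRM2, and every control library the reverse. The mean log2 ratio was 0.70 ± 0.59 in control cells and -1.64 ± 1.21, -0.88 ± 0.77 and -0.51 ± 0.36 for the herbs in the same order (SD, n = 3).

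Per base of transcript the crossing was less complete, since the canonical transcript of RRM2B has 4774 bases and that of RRM2 has 3258. On that scale the ratio was 1.52 to 3.35 in A549 control cells and 0.190 to 0.989 with P. chinensis. With B. chinense it was 0.541 to 1.46, and with P. umbellatus 0.813 to 1.34, so that 1 library with B. chinense and 2 of the 3 with P. umbellatus stayed above 1. In Huh7 cells RRM2 exceeded RRM2B in all 12 libraries on both scales. The ratio of counts was 5.82, 5.29 and 6.0 in Huh7 control cells. In cells given P. chinensis it was 6.78, 3.69 and 2.31, for B. chinense 7.35, 6.84 and 3.98, and P. umbellatus had 7.64, 6.27 and 8.11. The mean log2 ratio in Huh7 cells was 2.51 ± 0.09, 1.95 ± 0.78, 2.55 ± 0.48 and 2.87 ± 0.19 in that order. In A549 cells the rise of RRM2B is the part of this change that passed the test.

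**Figure D4:**
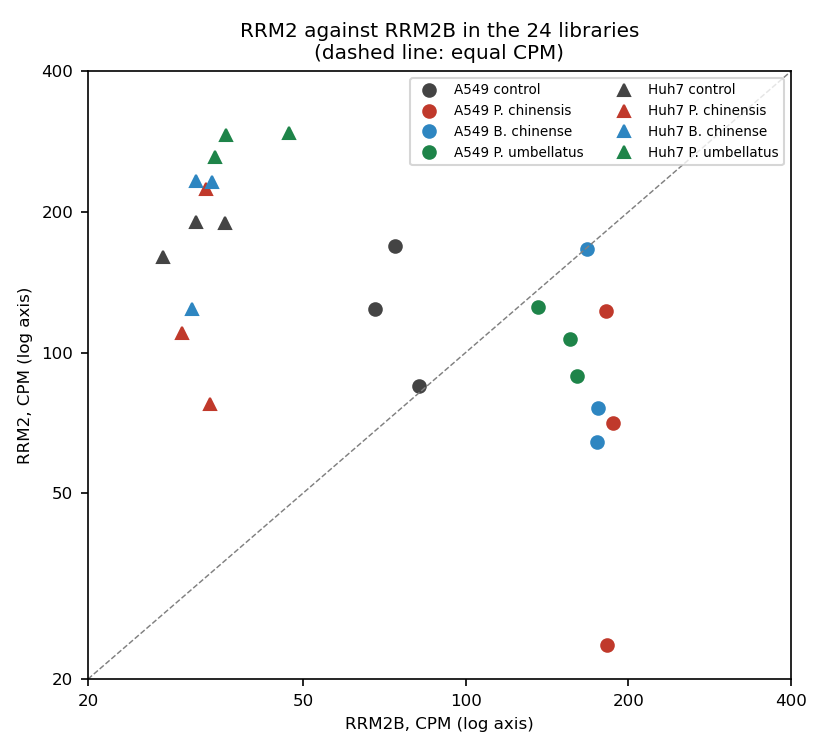
CPM of RRM2 (vertical axis) against CPM of RRM2B (horizontal axis), both on log axes and normalized over all 24 libraries, with circles for A549 and triangles for Huh7 libraries and a dashed line at equal CPM. The 9 treated A549 libraries lie below the line and the 3 control libraries above it. B. chinense replicate 3 (ratio 0.997) and control replicate 2 (1.04) lie almost on it. The 12 Huh7 libraries lie above it, at ratios of 2.31 to 8.11.

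The genes whose pattern was most like that of each small subunit were ranked by Pearson correlation of log2 CPM over the 24 libraries, with the mean of each line taken off, among 9951 genes. The libraries share groups, depth and line, so these values are a description. For RRM2B the 5 closest included TIGAR (r = 0.947), MDM2 (0.944), SESN3 (0.935) and ZMAT3 (0.934). For RRM2 they were ANAPC4 (r = 0.830), ZNF215 (0.780), METTL4 (0.771), RTTN (0.770) and SRGAP2C (0.748). The 5 genes like RRM2 followed it within groups as well, with r from 0.589 to 0.782 after the group means were taken off, so much of their likeness lay in the scatter between replicates.

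Other genes of the pathway were followed in fixed lists, described here by counts with no test of a list. They are to be read beside the shares of all genes called. In A549 cells these were 17.1%, 15.0% and 14.8% lower and 15.8%, 13.1% and 13.4% higher with the 3 herbs in the same order. In Huh7 cells they were 10.5%, 0.757% and 17.8% lower and 10.5%, 0.519% and 19.3% higher. The median log2 fold change of all genes lay between -0.01 and 0.03 in the 6 comparisons. None of the list values is corrected for GC content. With P. umbellatus in Huh7 cells the median was 0.35 for genes below 40% GC and -0.67 at 60% GC or more. How much of the list values of that comparison follows this trend was not tested. In A549 cells with P. chinensis the folate cycle that feeds TYMS had 7 of 10 genes lower and 0 higher, with a median log2 fold change of -0.49 against 0.01 over all genes. SHMT1, which loads serine carbon on folate, fell by 1.96 on the log2 scale (SE 0.47, adjusted p = 0.00516). B. chinense had 7 of the 10 lower, and P. umbellatus 6 lower and 1 higher. In Huh7 cells 7 of 10 were lower and 1 higher for P. chinensis, 1 was lower for B. chinense, and 4 were lower and 1 higher for P. umbellatus. SHMT1 fell by 2.01 (SE 0.42, adjusted p = 0.00506) and the mitochondrial SHMT2 by 1.05 (SE 0.10, adjusted p = 2.22e-05) with P. chinensis there.

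The other lists of nucleotide supply held members that rose and members that fell. Of 14 further nucleoside and nucleotide kinases tested in A549 cells with P. chinensis, 5 fell, among them NME4 (-0.77, adjusted p = 5.57e-08) and the uridine-cytidine kinase UCK2 (-0.44, adjusted p = 1.73e-05), and 1 rose, AK1 (0.87, adjusted p = 3.19e-04). In Huh7 cells 1 of 14 fell with this herb, AK4 (-0.43, adjusted p = 0.00126), and 5 of 14 fell with P. umbellatus, with a median of -0.20. Of the genes for dNTP and nucleotide breakdown and sanitation, 3 of 18 rose and 5 fell in A549 cells, with a median of 0.01. CDA, cytidine deaminase, rose by 0.95 (adjusted p = 1.26e-04) and NT5E, an ecto-nucleotidase, by 0.52 (adjusted p = 2.43e-05), whereas NUDT1, which hydrolyses oxidized dNTPs, changed by -0.80 (adjusted p = 0.0111) and the nucleotidase NT5C by -0.56 (adjusted p = 0.00248). In Huh7 cells with P. chinensis 1 of 17 rose, CDA at 2.33 (SE 0.51, adjusted p = 0.00939), and 2 fell, NT5E at -0.73 (adjusted p = 3.39e-04) and NT5C at -0.48 (adjusted p = 0.0262). With P. umbellatus 6 of 17 fell there and 0 rose, with a median of -0.25, without correction for GC content.

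Pyrimidine ring synthesis had 1 of 5 genes lower in A549 cells with P. chinensis, CAD (-0.39, adjusted p = 2.58e-06), which carries its first enzymes. In Huh7 cells it had 2 of 5 lower, CAD (-0.47, adjusted p = 0.0262) and the CTP synthase CTPS1 (-0.30, adjusted p = 0.0333). Of 6 carriers of nucleosides and nucleotides, 2 fell and 1 rose in A549 cells with this herb, among them SLC29A1, the main equilibrative nucleoside transporter (-0.69, adjusted p = 3.22e-05), and SLC29A3 (0.52, adjusted p = 0.0311). In Huh7 cells SLC29A1 (-1.05, adjusted p = 0.00164) and SLC29A2 (-0.96, adjusted p = 0.00191) fell, and with P. umbellatus 2 of the 6 carriers fell and 1 rose.

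The list of DNA replication genes fell with nearly all of its members in A549 cells. Of 26 genes of the DNA replication machinery, 25 fell and 0 rose with each herb, with medians of -1.28 for P. chinensis, -1.0 for B. chinense and -0.95 for P. umbellatus. GINS2 (-1.81, adjusted p = 4.99e-08) and MCM5 (-1.62, adjusted p = 1.02e-09), both parts of the replicative helicase, had the deepest falls with P. chinensis. In Huh7 cells 17 of 26 fell for P. chinensis, 1 for B. chinense and 9 for P. umbellatus, with MCM6 (-0.77, adjusted p = 8.06e-06) and MCM5 (-0.70, adjusted p = 0.00134) leading with P. chinensis. Of 15 S phase regulators 13, 13 and 11 fell and 0, 1 and 1 rose in A549 cells with the 3 herbs in the same order, led by E2F8 (-2.31, adjusted p = 1.14e-07) and E2F2 (-1.99, adjusted p = 4.55e-07) with P. chinensis. In Huh7 cells 8 of 15 fell with P. chinensis, again led by E2F2 (-0.94, adjusted p = 7.27e-05) and E2F8 (-0.85, adjusted p = 1.70e-04). With B. chinense 0 fell and 1 rose there, and with P. umbellatus 5 fell and 3 rose, with a median of -0.04.

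The p53 targets moved with RRM2B in A549 cells. Of 26 listed targets, which do not include RRM2B, 24 rose and 0 fell with each herb, with medians of 1.26, 1.08 and 1.03 for P. chinensis, B. chinense and P. umbellatus. TP53INP1 rose by 2.69 (SE 0.10, adjusted p = 2.37e-10) and CDKN1A, the inhibitor of cyclin-dependent kinases, by 2.54 (SE 0.08, adjusted p = 5.51e-11) with P. chinensis, both more than RRM2B at 1.28. In Huh7 cells 7 of 25 rose and 1 fell with P. chinensis, with a median of 0.14. GDF15 (1.44, adjusted p = 2.29e-04) and BTG2 (0.94, adjusted p = 3.22e-04) rose most, and MDM2, the p53 ubiquitin ligase, fell by 0.38 (adjusted p = 0.00637). With B. chinense 0 of 25 passed in edgeR in Huh7 cells, and with P. umbellatus 4 rose and 4 fell. Of the checkpoint kinases and transcription factors that act on ribonucleotide reductase, 4 of 7 fell and 1 rose in A549 cells with P. chinensis, with WEE1 at -1.24 (adjusted p = 3.55e-07), CHEK2 at -0.91 (adjusted p = 0.0244) and FOXO3 at 0.28 (adjusted p = 0.0166). In Huh7 cells 2 of 8 fell, ATR at -1.12 (adjusted p = 2.92e-04) and CHEK2 at -0.61 (adjusted p = 0.00178), while with P. umbellatus 0 fell and 1 rose.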

How the data were processed

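RNA was sequenced from 24 libraries of A549 and Huh7 cells, from total RNA with a stranded kit that removes ribosomal RNA. The authors estimated counts with kallisto on the GRCh38.p13 transcripts and deposited the estimated counts of protein-coding genes that averaged above 5, as whole numbers and not normalized for depth. How transcripts were summed and rounded per gene is not given in the sources used here.

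Here edgeR 4.0.16 in R 4.3.3 was used with TMM, a prior count of 2 and 1 coefficient per group, on the 13633 genes (A549) or 13875 genes (Huh7) with a mean above 5 in a line, and on the 12924 genes tested in both lines. Quasi-likelihood tests were two-sided and adjusted by Benjamini-Hochberg, and the pipeline was tested on simulated data. The enzymes and gene lists were chosen with earlier results of these data known. Named in the text are all 9 enzymes, ENOSF1, the 5 genes most like RRM2 and RRM2B, and up to 2 rises and 2 falls per list called with P. chinensis in each line. Some genes that this rule names are not reported here. MOB1B, which overlaps DCK, was added after its values were seen. Positions, lengths and GC content came from GENCODE v44 (GRCh38). Same-numbered replicates did not deviate together (correlations of -0.0619 to 0.0515), and the main fit holds no pairing. The labels do not say whether the numbers pair the groups. Alternatives were DESeq2 1.42.0, its size factors (RLE), upper quartile normalization, other count filters, voom of limma 3.58.1 with quality weights, the 2 groups alone, a replicate block, a GC and length correction (loess span 0.3), and leaving out each library.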

Additional observations from a re-analysis of the deposited data

Results flagged for a closer look

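The responses below differed between the cell lines by a test of the difference itself, the interaction of herb and line in edgeR, with p adjusted by Benjamini-Hochberg over 12924 genes. Each value is the A549 log2 fold change less the Huh7 one. RRM2B, the p53-inducible small subunit, rose more in A549 cells, by 1.28 with P. chinensis (adjusted p = 1.51e-06), 1.19 with B. chinense (adjusted p = 1.29e-05) and 0.72 with P. umbellatus (adjusted p = 9.01e-04). RRM1, the large subunit, was lower in A549 cells, by -0.83 (adjusted p = 1.97e-04), -0.98 (adjusted p = 6.61e-05) and -0.93 (adjusted p = 5.71e-05) in the same order of herbs. For DCK the differences were -0.88 (adjusted p = 0.00117), -0.81 (adjusted p = 0.00501) and -1.18 (adjusted p = 5.83e-05). After the GC and length correction the P. umbellatus values were 1.26 for RRM2B (adjusted p = 3.10e-07), -0.60 for RRM1 (3.91e-04) and -0.65 for DCK (0.0135). TK1 differed with P. chinensis (-0.90, adjusted p = 4.35e-04) and B. chinense (-0.67, adjusted p = 0.00949), and DTYMK with P. chinensis (-0.69, adjusted p = 4.11e-04). No group has more than 3 samples, so single outlying libraries were not tested for.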

How the results depend on the processing

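The number of enzymes called in A549 cells against control was 7 with each herb and stayed at 7 to 8, 7 to 7 and 7 to 7 when 1 library was left out. In Huh7 cells it was 5, 1 and 5, with ranges of 2 to 5, 0 to 2 and 4 to 6. Between herbs the ranges were 1 to 2, 1 to 3 and 0 to 0 in A549 cells and 0 to 3, 2 to 5 and 1 to 4 in Huh7 cells, for the differences between lines 5 to 5, 4 to 5 and 3 to 4, and for the control cells 3 to 6. The number of all genes called moved as well. With B. chinense against control in Huh7 cells it was 20 higher and 31 lower without control replicate 3. Without P. umbellatus replicate 2 it was 364 higher and 547 lower. The mean log2 ratio of RRM2 to RRM2B, herb minus control, was -2.35, -1.59 and -1.21 in A549 cells (ranges -2.88 to -1.69, -2.03 to -1.31 and -1.54 to -0.97) and -0.56, 0.04 and 0.36 in Huh7 cells (-0.96 to -0.19, -0.13 to 0.32 and 0.28 to 0.47).

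The counts of enzymes below are given beside those of all genes, which moved with the setting too. DESeq2 called 3 enzymes in place of 1 between P. chinensis and B. chinense in A549 cells, and 2 in place of 1 in Huh7 cells. Over all genes it called 132 higher and 326 lower in place of 61 and 137, and 766 and 989 in place of 540 and 543. Upper quartile normalization called 3 in place of 5 with P. chinensis in Huh7 cells, and of all genes 1781 higher and 1136 lower in place of 1450 and 1451. Voom with quality weights called 3 in place of 1 with B. chinense in Huh7 cells and 3 in place of 1 between it and P. chinensis. Of all genes it called 506 higher and 723 lower with B. chinense, in place of 72 and 105. For P. chinensis against B. chinense these were 1551 and 1793, in place of 540 and 543. The GC and length correction gave 3 in place of 1 for P. chinensis against B. chinense in Huh7 cells. It gave 2 in place of 4 and 1 in place of 3 for P. chinensis and B. chinense against P. umbellatus there. For the difference between lines with P. umbellatus it gave 5 in place of 3. In the Huh7 comparisons the correction called 1066 and 1184, 2000 and 1244, and 625 and 268 of all genes higher and lower, in that order. For P. chinensis against P. umbellatus in Huh7 cells it turned TK1 from 0.19 to -0.32 and DTYMK from 0.33 to -0.13. With only the 2 groups compared, Huh7 cells gave 3 with B. chinense, 3 for P. chinensis against B. chinense, and 1 and 0 against P. umbellatus. In those fits 399 of all genes were higher and 723 lower with B. chinense, and 1478 and 1725 for P. chinensis against B. chinense. Against P. umbellatus there were 846 and 1212 for P. chinensis, in place of 2295 and 2612. For B. chinense there were 2 and 0, in place of 1753 and 2028. The enzyme counts thus moved in the same direction as those of all genes in these 4 comparisons. Whether the replicate numbers pair the samples is not known. With a replicate block, Huh7 cells gave 3 enzymes with P. chinensis, 0 with B. chinense and 0 between these herbs, and the control cells 3 in place of 5. The block left 1304 of all genes higher and 1320 lower with P. chinensis in Huh7 cells. With B. chinense it left 43 and 73, and between these herbs 454 and 448. RLE size factors and both count filters changed no call of an enzyme. Of the other named genes, SLC29A2 with P. chinensis in A549 cells, at 0.02 and not called, ranged from -0.52 to 0.73 when 1 library was left out. The causes of these changes were not tested.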
